A study of Drosophila melanogaster with 12 samples.

Results

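Heads of Drosophila melanogaster flies given 25 percent sucrose were compared with heads of flies given 0 percent sucrose, both at 18 h. The comparison took 6 of the 12 RNA-seq libraries of the series: at 25 percent sucrose 2 libraries labelled cabut RNAi and 1 control library, and at 0 percent sucrose likewise 2 and 1. All flies were in the Canton-S background. The cabut RNAi flies carried Tim-gal4, a driver active in cells that express the clock gene timeless, together with UAS-cbt RNAi, and the control flies carried the UAS transgene (+/cbtE1-UAS-cbt RNAi) with no driver named. The other 6 libraries, with the same 2 genotypes at 50 and 100 percent sucrose, were used here to set the response at 25 percent beside those at the higher concentrations. Percentages of sucrose are those of the labels, which do not say what else the food held. Values are given as normalized reads, that is, read numbers multiplied by a factor that is the same for all genes of a library. The first and second library labelled cabut RNAi of a concentration are called R1 and R2, and its control library C. Wherever 3 values of a concentration are listed, they are those of R1, R2 and C.

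A fly's head holds photoreceptors, neurons and glia, and also a sheet of fat body, the tissue that takes the roles of liver and fat in insects. When sugar is scarce, flies draw on stored triglyceride: lipases free fatty acids, and beta-oxidation in mitochondria and peroxisomes breaks these down. Serine and glycine feed carbon units to folate, and folate passes them on to the purine ring, to methionine and to other products. Dietary sugar is sensed in flies by the Mondo and Mlx (bigmax) transcription factor pair, which acts through sugarbabe (sug), cabut (cbt) and other factors.

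With 1 transcript row kept per gene, the libraries at 25 percent sucrose held 1859204, 1093309 and 1333157 reads, and those at 0 percent held 1019360, 1829070 and 875878. Over all 12 libraries the range was 511464 to 1859204. Defining markers of the head were present: 11 photoreceptor markers summed to 40849 to 46471 normalized reads at 25 percent and 40289 to 42516 at 0 percent. Of 6 fat body markers 5 were present, and Fbp1 was at 0 in all 6 libraries. Their sum spread widely, at 35284 to 74239 normalized reads at 25 percent and 26258 to 75797 at 0 percent, and its part in the results below was not tested. Sums of neuron (254 to 335 against 266 to 323) and hemocyte markers (284 to 513 against 440 to 471) overlapped between 25 and 0 percent, those of glia (1863 to 2176 against 1760 to 1873) did so narrowly, and muscle markers ran from 1080 to 1677 at 25 percent and from 1039 to 1125 at 0 percent. No gene of these marker lists passed the test. The labels do not tell whether the libraries of a group are separate cultures, and p-values therefore cover the spread between libraries alone, part or all of which may be technical. Since whole heads were sampled, fewer cells of a type and less RNA per cell cannot be told apart.

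The targeted RNA, cbt (CG4427; its row CG4427-RB spans 476437 to 479046 on chromosome 2L of build dm3, the build of all coordinates here), encodes a zinc-finger transcription factor. At 25 percent sucrose cbt had 162, 126 and 139 normalized reads, against 102, 127 and 93.5 at 0 percent. R1 was above the control at both concentrations, and R2 was above it at 0 percent and below it at 25 percent, so cbt was not uniformly lower under the RNAi label and these libraries are called by their label throughout. The groups at 25 and 0 percent overlapped by a narrow margin, and the log2 fold change of 0.41 (95 percent interval 0.07 to 0.74) did not pass the threshold (limma, Benjamini-Hochberg adjusted p = 0.432).

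Among the genes that passed the test at 25 percent sucrose, more fell than rose. Genes listed under serine, glycine and folate metabolism, purine synthesis, lipases and lipid droplets, and beta-oxidation made up much of what fell. These gene lists were chosen with earlier results of these data known, and 15 of the 40 genes that fell are in no list. In the other direction 8 genes rose, among them fit and the phosphatidylserine decarboxylase gene Pisd. Of 6551 genes tested, 40 fell, which is 0.611 percent, and 8 rose, which is 0.122 percent (limma on log2(value + 1) with the label as a term, adjusted p under 0.05). Taken label by label, the 8 genes that rose were positive and the 40 that fell were negative in both genotypes. This is no separate evidence, because the genes were called on these same libraries with both labels pooled. Values of 43 of the 48 did not overlap between the 3 libraries at 25 percent and the 3 at 0 percent. Over all genes tested, 311 (4.75 percent) lay wholly higher and 379 (5.79 percent) wholly lower at 25 percent. Over all genes tested, 3384 of 6551 had a positive log2 fold change and the median was 0.01. When each of the 6 libraries was left out in turn, 16 of the 48 calls stood in all 6 fits. Of these fits, that without R2 at 25 percent had the most genes lower. Between R1 and R2, chi-square over its degrees of freedom was 5.747 at 25 percent and 2.735 at 0 percent. The pair at 25 percent was thus further apart. With the label as a term, each fit without a control library rests on the libraries labelled cabut RNAi alone. The counts depended most on R1 at 0 percent, without which 3 genes were higher and 13 lower. Without R2 at 0 percent 12 were higher and 23 lower, and without R1 at 25 percent 8 and 25. Without the control library at 25 percent, or without that at 0 percent, 5 were higher and 35 lower.

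**Figure D1:**
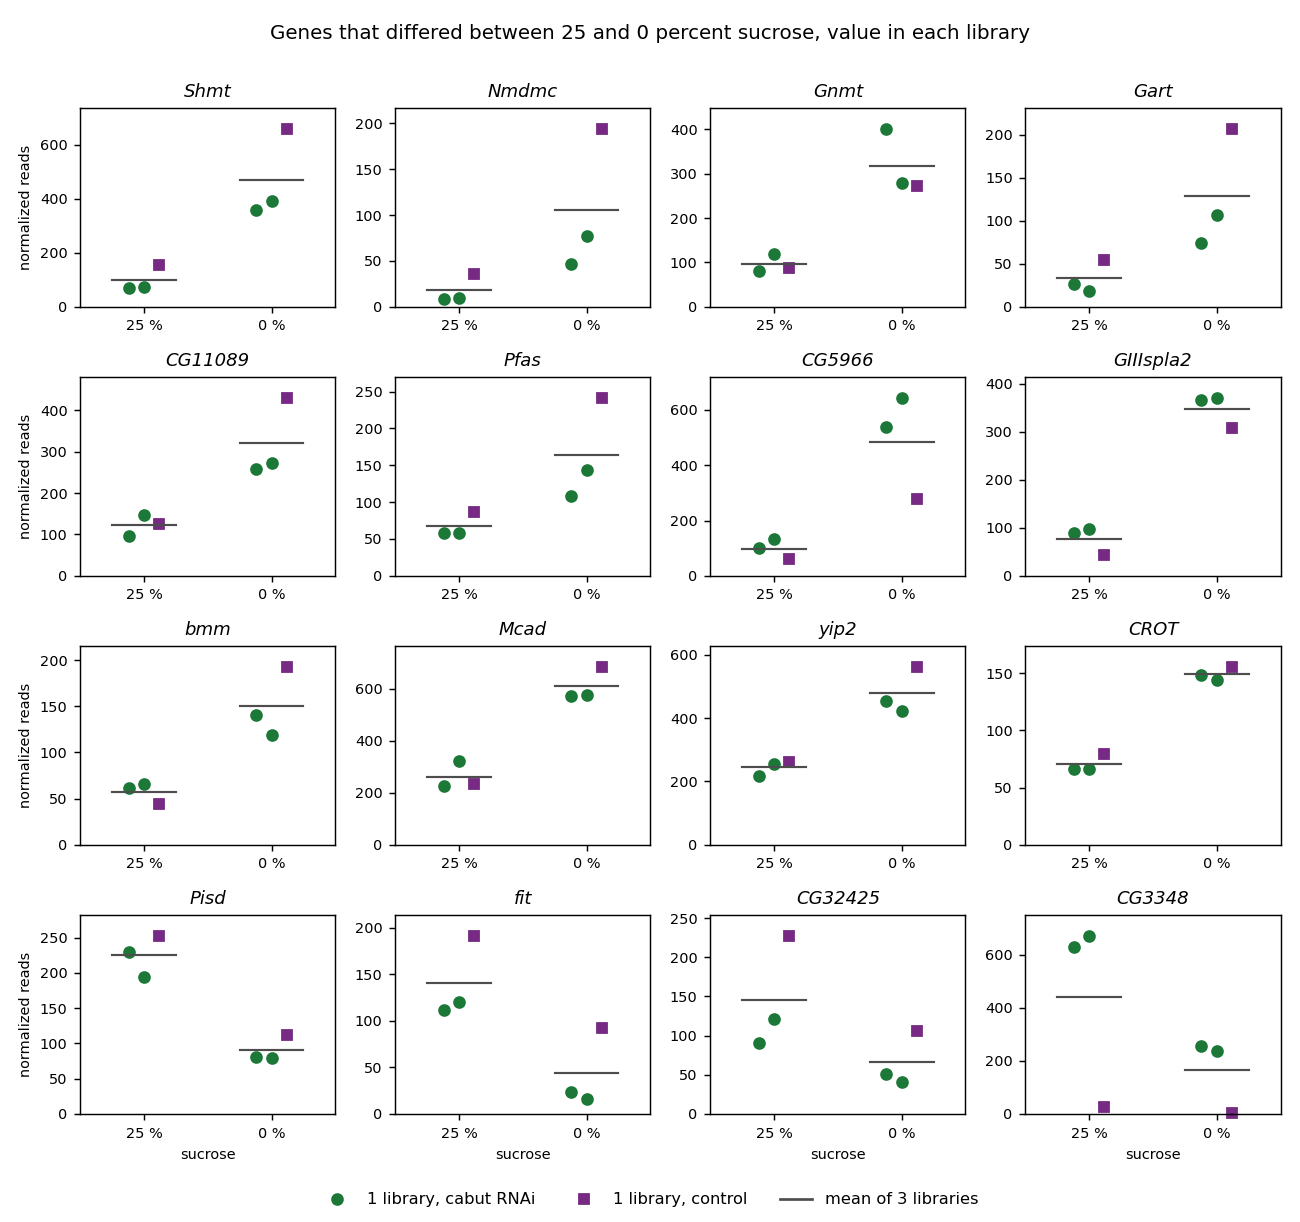
Normalized reads of 16 genes in each library at 25 percent sucrose (left in each panel) and at 0 percent (right). Circles are libraries labelled cabut RNAi, squares are control libraries and lines are means of 3 libraries. In 14 of the panels the groups do not overlap. For CG32425 and CG3348 they overlap because the labels lie apart, while each label is higher at 25 percent.

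In serine, glycine and folate metabolism 4 of 20 tested genes fell and none rose, with a list median of -0.53. Shmt (CG3011, chromosome X, 5807099 to 5810826), serine hydroxymethyltransferase, moves a carbon unit from serine to folate. At 25 percent sucrose Shmt had 68.9, 72.3 and 155 normalized reads, against 359, 393 and 657 at 0 percent. No library at 25 percent came near the lowest at 0 percent, and in both groups the control library was the highest. The change was 4.89-fold (log2 fold change -2.29 ± 0.12, SE; limma adjusted p = 4.84e-06). Nmdmc (CG18466, chromosome 3R, 4868226 to 4874969), the NAD-dependent methylenetetrahydrofolate dehydrogenase that acts on the folate product of that step, had 7.99, 9.39 and 36.1 normalized reads at 25 percent sucrose and 47.1, 77.3 and 193 at 0 percent. The groups did not overlap, and the control library again stood above the others in each. Nmdmc fell 5.96-fold (log2 fold change -2.58 ± 0.22; adjusted p = 0.000235). Its row overlaps that of Rel, for which the log2 fold change was 0.06 (adjusted p = 0.932). Gnmt, glycine N-methyltransferase, which uses glycine to consume methyl groups, had 81.4, 119 and 86.4 normalized reads at 25 percent and 399.8, 278 and 273 at 0 percent (log2 fold change -1.72 ± 0.17; adjusted p = 0.000529). CG11899, phosphoserine aminotransferase in serine synthesis, had 128, 166 and 209 against 218, 238 and 392, a smaller fall of 0.73 on the log2 scale (adjusted p = 0.0344). Shmt, Nmdmc and Gnmt stood whichever library was left out. The CG11899 call stood in 1 such fit, that without R2 at 25 percent, and was lost in the other 5 (adjusted p = 0.129 to 0.182). Other members lay lower without passing: Ahcy, adenosylhomocysteinase, had a log2 fold change of -1.05 (adjusted p = 0.0911), and CG6287 had -0.65 (0.052). Sam-S, S-adenosylmethionine synthetase, was near 0 (0.07). Summed over the list, the libraries held 1679, 1943 and 2046 normalized reads at 25 percent and 2754, 2860.3 and 3932 at 0 percent, with no overlap.

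De novo purine synthesis, which takes carbon from folate for its ring, had 6 of 10 tested genes lower and none higher, with a list median of -0.78. Gart (chromosome 2L, 7014861 to 7023940) encodes a protein with 3 of the enzyme activities of the pathway's early part. At 25 percent sucrose Gart had 26.0, 18.8 and 54.5 normalized reads, against 74.6, 106 and 206 at 0 percent. No library at 25 percent reached the lowest at 0 percent, and Gart fell 3.84-fold (log2 fold change -1.94 ± 0.19; limma adjusted p = 0.000473). Pfas, the enzyme of the step after Gart's second, had 58.4, 58.2 and 87.3 normalized reads at 25 percent and 108, 143 and 241 at 0 percent (log2 fold change -1.21 ± 0.15; adjusted p = 0.00319). CG11089, the enzyme of the last steps to IMP, had 96.3, 147 and 124 at 25 percent and 259, 273 and 429 at 0 percent (-1.36 ± 0.18; adjusted p = 0.00332). In Adsl, adenylosuccinate lyase, there were 18.97, 18.8 and 33.6 normalized reads at 25 percent and 57.8, 53.6 and 66.6 at 0 percent (-1.33 ± 0.20; adjusted p = 0.00652). These 3 genes also did not overlap between the concentrations. Prps, which makes the ribose donor, fell by 0.82 (adjusted p = 0.0313) and Paics fell by 0.70 (adjusted p = 0.0366) on the log2 scale. For Paics the groups overlapped, since the control library at 25 percent (464) lay above both libraries labelled cabut RNAi at 0 percent (339 and 442). The calls of Gart, Pfas and CG11089 stood whichever library was left out. The Adsl call was lost without R1 (adjusted p = 0.0858) or R2 (0.0657) at 0 percent. Prps lost its call in all 6 such fits (adjusted p = 0.0599 to 0.138), and Paics in all but that without R2 at 25 percent (0.0675 to 0.182). Prat2, of the first committed step, had a log2 fold change of -0.75 and did not pass (adjusted p = 0.0937). The remaining tested members, bur (0.01) and ras (0.15), both of GMP synthesis, and Adss (0.08), of AMP synthesis, were near 0. Summed over the list, there were 864, 922 and 1385 normalized reads at 25 percent and 1356, 1699 and 2447 at 0 percent. The control library at 25 percent lay just above R1 at 0 percent, so the sums overlapped.

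Lipases and lipid droplet genes had 3 of 13 tested lower and none higher, with a median of -0.40. CG5966 (chromosome X, 5882845 to 5886677), of the lipase family, had 101, 133 and 59.6 normalized reads at 25 percent sucrose, against 537, 642 and 279 at 0 percent. Its control libraries were the lowest of each group, unlike those of Shmt, Nmdmc and Gart, and the groups stood far apart. CG5966 fell 4.88-fold (log2 fold change -2.29 ± 0.14; limma adjusted p = 8.89e-06). GIIIspla2 (chromosome X, 8051580 to 8053072), a secreted phospholipase A2 gene, had 89.9, 98.5 and 43.6 at 25 percent and 367, 369.7 and 307 at 0 percent, a 4.71-fold fall (-2.23 ± 0.17; adjusted p = 5.59e-05). The triglyceride lipase gene bmm (brummer, chromosome 3L, 14769596 to 14779523) had 61.4, 65.7 and 44.5 normalized reads at 25 percent and 140.4, 119 and 192 at 0 percent. It fell 2.59-fold without overlap of the groups (-1.37 ± 0.20; adjusted p = 0.00682), and this call was lost without R1 at 0 percent (adjusted p = 0.0677). Lsd-1, a perilipin on lipid droplets, had 275, 304 and 228 at 25 percent and 153, 236 and 123 at 0 percent. One value at each concentration overlapped, and its log2 fold change of 0.70 (95 percent interval 0.34 to 1.05) did not pass (adjusted p = 0.105). None of 10 lipogenesis genes passed (median -0.08), the fatty acid synthase gene FASN1 having a log2 fold change of 0.36 (interval 0.01 to 0.70, adjusted p = 0.548).

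In the beta-oxidation list 6 of 22 tested genes fell and none rose, with a median of -0.43. They were genes of the acyl-CoA dehydrogenase family, of the electron transfer that follows and of the last, thiolytic step. Enzymes of this family differ in substrate, and the substrates of those named here were not examined. A place in this list therefore does not show that CG3902 or CG9547 acts on fatty acids rather than in amino acid breakdown. Mcad (chromosome 3L, 7712461 to 7714585), the medium-chain acyl-CoA dehydrogenase, had 228, 324 and 232 normalized reads at 25 percent sucrose, against 574, 577 and 683 at 0 percent. The highest value at 25 percent was well under the lowest at 0 percent, and the fall was 2.36-fold (log2 fold change -1.24 ± 0.15; limma adjusted p = 0.0026). CG3902, another acyl-CoA dehydrogenase gene, had 129.8, 154 and 243 at 25 percent and 302, 361 and 385 at 0 percent (-1.04 ± 0.15; adjusted p = 0.00521). CG9547, of the same enzyme family, had 25.5, 31.0 and 23.5 at 25 percent and 81.7, 49.5 and 78.1 at 0 percent (-1.33 ± 0.23; adjusted p = 0.0204). For CG3902 the control library was the highest of each group, which it was not for CG9547. Etf-QO, which hands the electrons to the respiratory chain, fell by 0.80 (adjusted p = 0.0126), and Mtpbeta, a subunit of the trifunctional protein, fell by 0.64 (adjusted p = 0.047). The thiolase gene yip2 had 218, 254 and 263 at 25 percent and 453, 421 and 559.7 at 0 percent, a 1.94-fold fall (-0.96 ± 0.12; adjusted p = 0.0026). None of these 6 overlapped between the groups. Mcad and yip2 stood whichever library was left out. CG3902 lost its call without R1 at 0 percent (adjusted p = 0.0633). CG9547 lost it without that library (0.205), without R1 at 25 percent (0.0587), and without the control library at 0 percent (0.118) or at 25 percent (0.085). Etf-QO (0.0512 to 0.115) and Mtpbeta (0.159 to 0.309) lost it in all but the fit without R2 at 25 percent. The partner subunit Mtpalpha had a log2 fold change of -0.77 (adjusted p = 0.0568), and whd, which loads fatty acids on carnitine for entry into mitochondria, had -0.22 (adjusted p = 0.621). Summed over the list, there were 3546, 4347 and 4617 normalized reads at 25 percent and 5588, 5639 and 7256 at 0 percent.

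**Figure D2:**
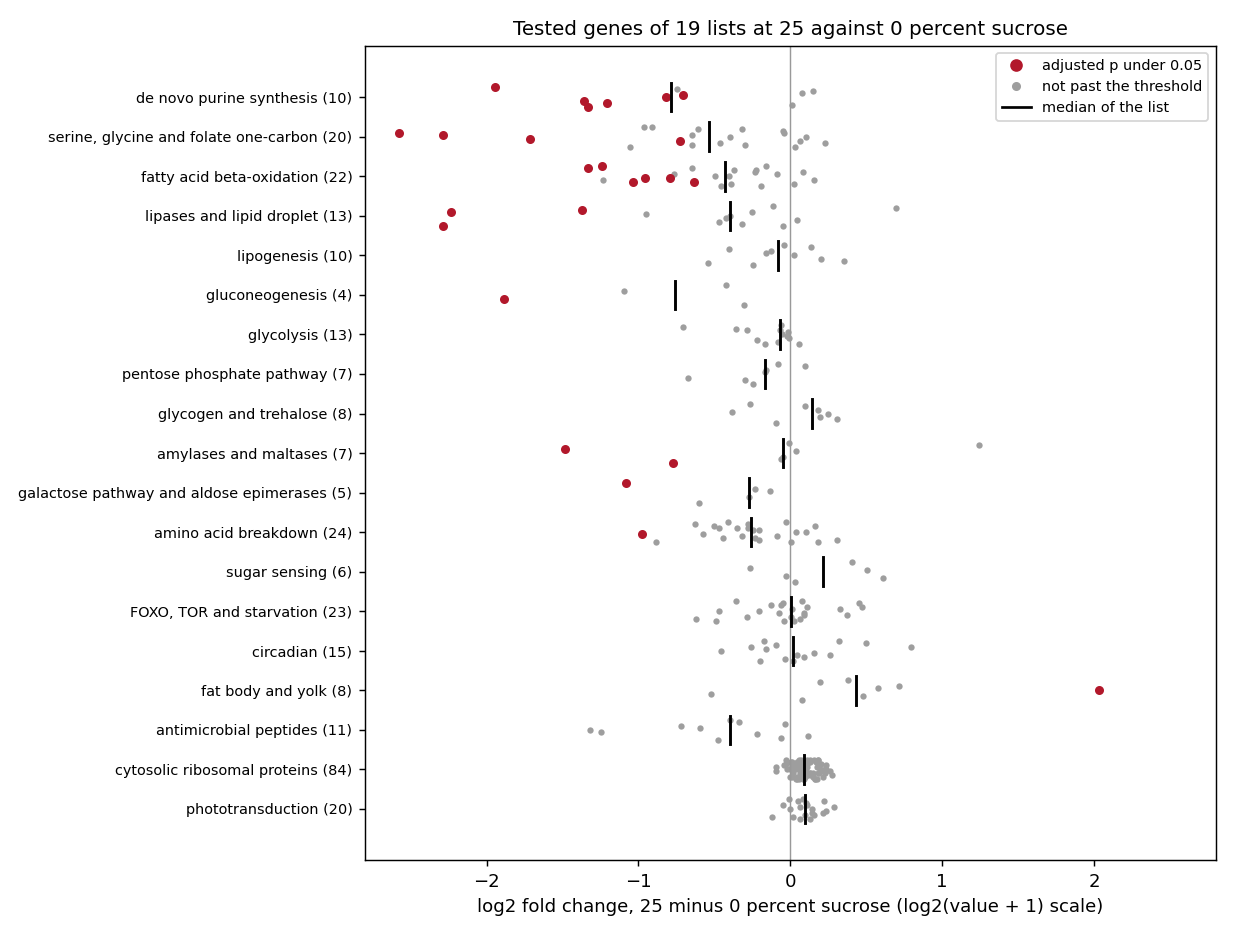
Log2 fold change at 25 against 0 percent sucrose (horizontal axis) for the tested genes of 19 lists, with the number tested in brackets. Each point is a gene, red where the limma adjusted p was under 0.05, and vertical bars are list medians. Red points lie left of 0 except fit in the fat body and yolk list, and the lists of purine synthesis, gluconeogenesis and one-carbon metabolism have the lowest medians.

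Carbohydrate genes gave few calls. None of 13 glycolysis genes passed (median -0.07, the pyruvate kinase gene PyK at 0.06 with a 95 percent interval of -0.19 to 0.30), nor did any of 7 pentose phosphate genes (median -0.16), 8 glycogen and trehalose genes (median 0.14) or 6 polyol genes (median -0.29). In gluconeogenesis 1 of 4 fell, Pepck2, a phosphoenolpyruvate carboxykinase gene (list median -0.76). At 25 percent sucrose Pepck2 had 15.5, 14.1 and 1.68 normalized reads, against 32.9, 38.2 and 24.3 at 0 percent. The control library at 25 percent was by far the lowest, and no value overlapped (log2 fold change -1.89 ± 0.37; limma adjusted p = 0.0463). The call stood in 7 of 19 alternative fits. It was lost, among others, with a pseudocount of 0.5, quantile normalization, the fit over 12 libraries and summed transcript rows. In the control library at 25 percent 1 read is 0.839 normalized reads, so the log2 fold change depends on the pseudocount. Without either control library the value was -1.21 (adjusted p = 0.164 without that at 0 percent and 0.0841 without that at 25 percent). The call was also lost without R1 (0.107) or R2 (0.165) at 0 percent. The amylase genes Amy-p and Amy-d, which cut starch, were the 2 that fell of 7 amylases and maltases (median -0.05). Amy-p had 96.8, 104 and 82.2 at 25 percent and 329, 249.5 and 225 at 0 percent, with no overlap (-1.48 ± 0.14; adjusted p = 0.000315). Amy-d fell by 0.77 (adjusted p = 0.00599), a call lost without R1 at 0 percent (0.0675). Both are near-identical copies of a single gene, so how reads were shared out between them is uncertain. Galk, galactokinase, fell by 1.08 (adjusted p = 0.00391), the 1 call among 5 genes of the galactose list (median -0.27), and lost it without the same library (0.0542).

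None of the 6 sugar-sensing genes passed, and their median was 0.22. The highest change was in sug, a transcription factor gene, with 83.9, 85.4 and 83.1 normalized reads at 25 percent sucrose and 48.9, 40.7 and 82.0 at 0 percent. All 3 values at 25 percent lay close together, while at 0 percent the control library stood above both libraries labelled cabut RNAi. Its log2 fold change was 0.61 (95 percent interval 0.18 to 1.04; limma adjusted p = 0.324). For daw, an activin-like ligand, it was 0.50 (adjusted p = 0.462), and for Mondo -0.27 (adjusted p = 0.745). Amino acid breakdown had 1 of 24 genes lower (median -0.26): Got2, mitochondrial aspartate aminotransferase, had 530.1, 735 and 418 at 25 percent and 1112, 1175 and 954 at 0 percent (-0.98 ± 0.14; adjusted p = 0.00521), and lost the call without R1 at 0 percent (0.0542). Of 47 cytochrome P450 genes 1 fell (median -0.10), Cyp4e2, which fell by 0.88 (adjusted p = 0.00316) and stood whichever library was left out. Among 8 fat body and yolk genes 1 rose, fit (median 0.43). In 32 of the 45 lists members were tested and none passed, with medians from -0.39 in the antimicrobial peptides to 0.25 in the neuropeptides. Among these were 23 FOXO, TOR and starvation genes (median 0.01), 15 circadian genes (0.02), 84 cytosolic ribosomal protein genes (0.09), 20 phototransduction genes (0.10) and 67 genes of the respiratory chain (0.00). In 3 lists, of midgut enzymes, ovary, and testis and accessory gland, no member was high enough to be tested.

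Among the 8 genes that rose, Pisd (CG5991, chromosome 3R, 19877365 to 19879314) had the smallest p. It encodes phosphatidylserine decarboxylase, which makes phosphatidylethanolamine in mitochondria. At 25 percent sucrose Pisd had 230.1, 194 and 252 normalized reads, against 80.9, 79.9 and 111 at 0 percent, without overlap (log2 fold change 1.31 ± 0.13; limma adjusted p = 0.000473). The gene fit (female-specific independent of transformer, chromosome 3R, 17709640 to 17710176), which encodes a fat body peptide, had 112, 120.1 and 190.5 at 25 percent and 24.0, 15.5 and 92.2 at 0 percent. In each group the control library was the highest, and the groups stood apart (2.03 ± 0.27, 4.09-fold; adjusted p = 0.00399). Without R1 at 0 percent the adjusted p of fit was 0.0527. CG32425 had 89.9, 121 and 227 at 25 percent and 51.5, 40.7 and 106 at 0 percent, so the control at 0 percent lay within the range at 25 percent (1.14 ± 0.16; adjusted p = 0.00521). CG3348 had 630.0, 668 and 27.7 at 25 percent and 256, 238 and 2.56 at 0 percent (1.93 ± 0.26; adjusted p = 0.00397). Its groups overlapped because the labels differed more than the concentrations did, and its row overlaps that of Hmu (-0.03; adjusted p = 0.971). CG9837, a low gene outside the naming rule, had 28.0, 39.4 and 47.0 at 25 percent and 6.22, 8.76 and 16.6 at 0 percent (1.83 ± 0.26; adjusted p = 0.00566). The remaining 3 rose by smaller amounts. Phyhd1, of the phytanoyl-CoA dioxygenase family, had a log2 fold change of 0.90 (adjusted p = 0.0492), CG8157 had 0.79 (0.0366) and the chitinase gene Cht6 had 0.68 (0.0413). Pisd, CG32425 and CG3348 stood whichever library was left out. CG9837 lost its call without R1 at 0 percent (0.0545), and Phyhd1 lost it in all 6 such fits (0.0578 to 0.302). CG8157 lost it in all but that without R2 at 0 percent (0.0947 to 0.237), and Cht6 in all but that without R2 at 25 percent (0.0581 to 0.366).

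A further 15 genes that fell were members of no list. Among these, CG31075 and cu come from the naming rule, and the rest were named after their values were seen, to complete the account. The steepest was hll (heimdall), of the acyl-CoA synthetase family, with 0, 0.939 and 16.8 normalized reads at 25 percent sucrose and 48.9, 65.5 and 76.8 at 0 percent. The groups did not overlap, and the fitted log2 fold change of -4.29 ± 0.54 depends on the pseudocount because a library was at 0 (limma adjusted p = 0.00316). CROT, carnitine O-octanoyltransferase, had 66.4, 66.6 and 79.7 at 25 percent and 148, 144 and 155 at 0 percent (-1.07 ± 0.13; adjusted p = 0.0026). Mfe2, a peroxisomal multifunctional enzyme, fell by 0.67 (adjusted p = 0.0421), Hao, hydroxyacid oxidase, fell by 1.33 (0.026) and Agxt, alanine-glyoxylate aminotransferase, fell by 0.66 (0.0358). The row of CROT overlaps that of btz (-0.54; adjusted p = 0.176). CG31075 fell by 1.33 (0.00332), and cu (curled, the fly nocturnin) fell by 1.24 (0.00521). Gs1, glutamine synthetase, fell by 0.64 (0.033), the sodium-dependent solute transporter gene SLC5A11 fell by 0.96 (0.0302), and Sirup, an assembly factor of succinate dehydrogenase, fell by 0.65 (0.0366). IM18 fell by 0.99 (0.00644), Reg-2 fell by 0.95 (0.00876), CG5321 fell by 1.03 (0.0201), CG8112 fell by 0.91 (0.0313) and CG34265 fell by 1.64 (0.0413).

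CROT stood whichever library was left out. Without R1 at 0 percent the calls of hll (adjusted p = 0.0527), CG31075 (0.0542) and IM18 (0.0643) were lost, and so was that of cu (0.0675), which was lost without R2 at 0 percent as well (0.0514). Hao (0.0747 to 0.147) and CG5321 (0.0864 to 0.147) lost their calls without R1 or R2 at 0 percent and without R1 at 25 percent. Reg-2 lost it without those 3 libraries and without the control at 0 percent (0.0562 to 0.0858). CG34265 lost it without any 1 of the 4 libraries labelled cabut RNAi (0.0687 to 0.302). CG8112 lost it without R1 at either concentration and without either control (0.102 to 0.247). Gs1 (0.0678 to 0.218), SLC5A11 (0.0675 to 0.179) and Sirup (0.0657 to 0.26) lost it in all but the fit without R2 at 25 percent. Agxt (0.0588 to 0.218) and Mfe2 (0.0811 to 0.302) lost it in all 6. Rows of 19 of the 48 genes overlap that of another gene. None of the partners high enough to be tested passed, and the others were too low to test. Wwox, whose row overlaps that of Sirup, had a log2 fold change of -0.71 (adjusted p = 0.389), about as large as that of Sirup. The use of strand in counting is not given in the sources used here, so reads of such pairs cannot be told apart.

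Whether the 2 genotypes differed in the response at 25 percent was tested as the difference of their log2 changes. For 6 genes (0.0916 percent) the change was higher in the libraries labelled cabut RNAi than in the controls and for 2 (0.0305 percent) it was lower (limma, adjusted p under 0.05). Pepck1, the cytosolic phosphoenolpyruvate carboxykinase gene, had 990.4 and 1213 normalized reads at 25 percent against 1608 and 1511 at 0 percent in the libraries labelled cabut RNAi, and 383 against 1853 in the controls. The fall was thus steeper in the control pair, and the difference of the log2 changes was 1.77 ± 0.24 (adjusted p = 0.0182). Cyp4e3, a cytochrome P450 gene, had 746 and 871 at 25 percent against 919 and 1098 at 0 percent under the RNAi label, and 20.1 against 131 in the controls (difference 2.32 ± 0.26; adjusted p = 0.00876). CG10383 had 55.9 and 53.5 against 51.5 and 56.2, and 39.4 against 199.8 in the controls (difference 2.33 ± 0.30; adjusted p = 0.0181). For CG10383 the high value is that of the control library at 0 percent alone. Irp-1B, an iron regulatory protein gene, had 120.3 and 161 against 136 and 121, and 52.0 against 161 in the controls (difference 1.73 ± 0.28; adjusted p = 0.0482). CG3348 was higher at 25 percent in both labels, by 1.39 in the libraries labelled cabut RNAi and by 3.01 in the controls on the log2 scale (difference -1.62 ± 0.24; adjusted p = 0.0215). Its control library at 0 percent held 2.56 normalized reads, where 1 read is 1.28, so the difference depends on the pseudocount. Over the alternative fits it ran from -1.99 to -0.73, and the call was lost with a pseudocount of 5 and in edgeR.

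The other 3 such genes were named because the count was small. Thor, the translation inhibitor 4E-BP that FOXO induces when nutrients are scarce, had 491 and 489.9 normalized reads at 25 percent against 391 and 315 at 0 percent in the libraries labelled cabut RNAi, and 416 against 804 in the controls. The directions were thus opposite (difference 1.43 ± 0.23; limma adjusted p = 0.0385). AcCoAS, acetyl-CoA synthetase, had 457 and 484 against 367 and 395, and 256 against 507 in the controls (1.29 ± 0.18; adjusted p = 0.0198). Prestin had 8.99 and 11.3 against 14.2 and 15.5, and 18.5 against 1.28 in the controls, all low values (-3.61 ± 0.51; adjusted p = 0.0198). With 1 control library at each concentration, the control's spread is taken to be that of the other groups, and neither control library could be left out. No call stood without R2 at 25 percent. Without R2 at 0 percent Cyp4e3 alone stood, and without R1 at 0 percent 5 genes passed, 4 of them among the 8, and without R1 at 25 percent 9 passed, 5 of them among the 8. The highest adjusted p over the fits that left out a library was 0.0532 for Cyp4e3, 0.0774 for CG10383, 0.0806 for AcCoAS, 0.0876 for Pepck1, 0.0975 for CG3348, 0.117 for Prestin, 0.13 for Thor and 0.21 for Irp-1B. Leaving out a library labelled cabut RNAi at 50 percent left 4 calls and at 100 percent 5.

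**Figure D3:**
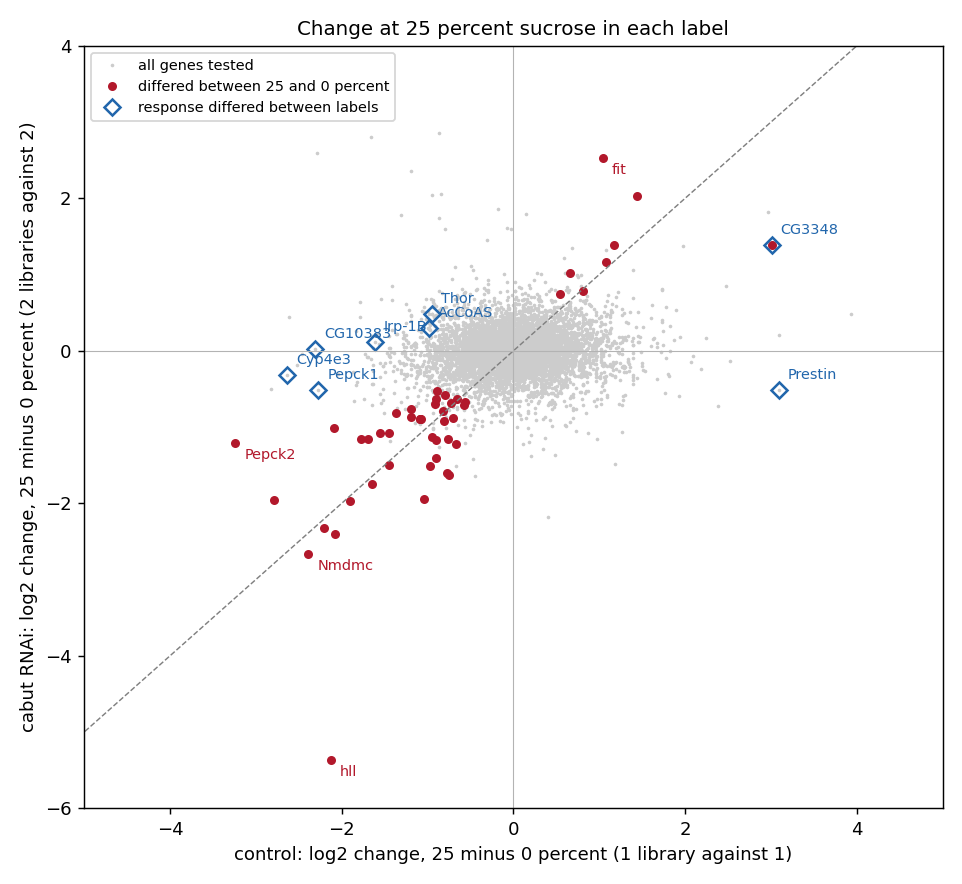
Log2 change at 25 against 0 percent sucrose in the libraries labelled cabut RNAi (vertical axis, 2 libraries against 2) and in the controls (horizontal axis, 1 against 1). Grey points are the 6551 genes tested, red points the 48 that differed between the concentrations and open diamonds the 8 whose change differed between the labels. All red points lie at the lower left or the upper right of the 2 zero lines. The diamonds of Thor and AcCoAS lie above 0 on the vertical axis and below 0 on the horizontal.

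At 50 and 100 percent sucrose the medians of these genes were shifted the same way as at 25 percent. None of 6551 genes (0 percent) passed at 25 against 50 percent, or at 25 against 100 percent (0 percent), in limma fits over all 12 libraries. At an unadjusted p under 0.05 there were 399 and 307, and edgeR called 0 and 8. The median half-width of the 95 percent interval of a gene's log2 difference was 0.471 in either comparison. That interval is not adjusted for the 6551 tests, and larger differences also failed to pass. For CG5966 at 25 against 100 percent the difference was 0.91 (limma adjusted p = 0.567). The lack of calls therefore does not show that the concentrations are alike. The 40 genes that fell at 25 percent had a median log2 change against 0 percent of -1.07 at 25, -1.04 at 50 and -1.33 at 100 percent, and the 8 that rose had 1.23, 1.38 and 1.22. These 3 contrasts share the libraries at 0 percent, and the genes were chosen at 25 percent. Shmt had 76.0, 123 and 253 normalized reads at 50 percent and 75.3, 67.0 and 206 at 100 percent. The value at 25 percent differed from that at 50 by -0.53 (interval -0.89 to -0.18) and from that at 100 by -0.14 (-0.50 to 0.21) on the log2 scale. Nmdmc was likewise at or below its level at 50 percent (12.3, 27.6 and 52.0; difference -0.85, interval -1.53 to -0.17).

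Some genes lay further from their level at 0 percent at the top concentration. CG5966 had 73.9, 112 and 58.2 normalized reads at 50 percent and 56.9, 46.7 and 44.8 at 100 percent. Its value at 25 percent was above that at 100 by 0.91 (95 percent interval 0.51 to 1.30), and edgeR called this difference (1.01; adjusted p = 0.0419). Mcad had 246, 278 and 395 at 50 percent and 171, 186 and 231 at 100 percent (25 minus 100 percent, 0.41, interval 0.09 to 0.73). All 3 libraries at 25 percent lay above all 3 at 100 percent for CG5966, while those of Mcad overlapped. For fit there were 209, 103 and 138 at 50 percent and 265, 231 and 208 at 100 percent (25 minus 100 percent, -0.77, interval -1.51 to -0.02). In sug the values were 177, 128 and 103 at 50 percent and 143, 132 and 91.8 at 100 percent, and 25 minus 50 percent was -0.65 (interval -1.13 to -0.17). None of these passed in limma. The other 7 edgeR calls at 25 against 100 percent were CG14645, CG34220, CG34324, CG3906, Cyp4g1, Muc68D and dhd, all lower at 25 percent, and none passed in limma. These calls rest on the control library at 100 percent, which held 129.8 (CG3906) to 1473 (CG14645) normalized reads of them, while no other library of the 12 held more than 17.3 (Cyp4g1). In that library the midgut list summed to 145 normalized reads, against 3.09 to 19.8 in the other 11, and the ovary list to 40.3, against 0 to 2.56. Without it edgeR called 0 genes at 25 against 100 percent (CG5966 1.16; adjusted p = 0.0707), in a fit added after the data were seen. Without the control library at 25 percent limma called FASN1 (-0.83; adjusted p = 0.0369). These calls were named after their values were seen.

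**Figure D4:**
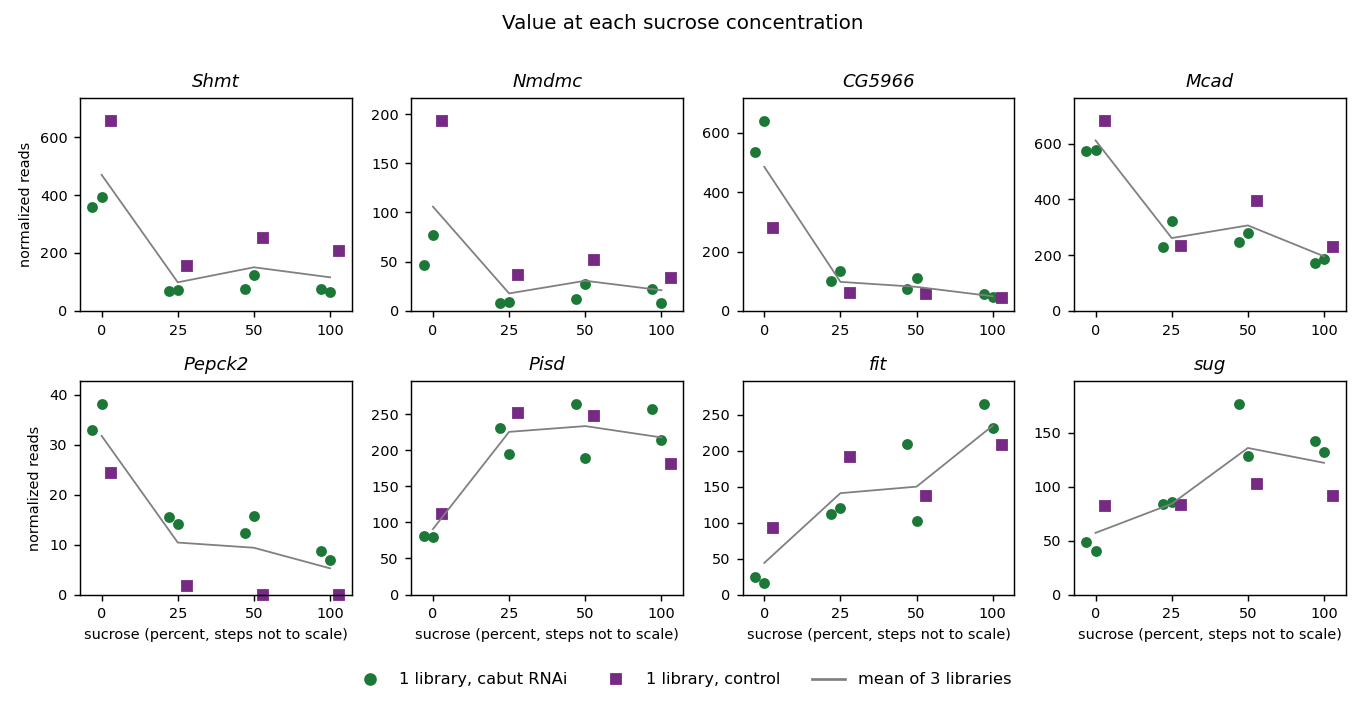
Normalized reads of 8 genes at 0, 25, 50 and 100 percent sucrose (horizontal axis, steps not to scale). Circles are libraries labelled cabut RNAi, squares are control libraries and the line joins the means of 3 libraries. For Shmt, Nmdmc, CG5966, Mcad, Pepck2 and Pisd the largest step lies between 0 and 25 percent. For sug it lies between 25 and 50 percent, and its control squares stay between 82.0 and 103.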

How the data were processed

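Per the labels' protocols, RNA of fly heads was fragmented and then selected for poly(A). The submitters' processing notes name Bowtie, TopHat and build dm3, without versions. How reads were counted, whether by strand, and how they were normalized is not given in the sources used here. The authors deposited 21081 transcript rows as a normalized signal. Dividing each column by its smallest step gave whole reads (100 percent of values, tolerance 0.01). Left out were 2 rows naming no gene. RefSeq's table, used for names only, matched 13634 of 14009 gene numbers. Each of 13746 genes took its row of highest mean over 12 libraries (1218 had 2 or more distinct rows), and 99 that share all reads with another gene are not named.

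Genes averaging at least 10 (6551) were fitted in limma 3.58.1 (R 4.3.3) with an intensity trend, on log2(value + 1), a scale on which changes of low genes come out too small. Concentration and label were terms, over the 6 libraries at 25 and 0 percent. The difference between labels used 8 group means and 25 against 50 or 100 percent additive fits, both over 12 libraries. Benjamini-Hochberg adjustment ran over all genes tested (threshold 0.05). Recovered reads were also tested with edgeR 4.0.16 and DESeq2 1.42.0. The naming rule took cbt; of calls averaging at least 50, the 12 largest each way (4 in other comparisons); and at most 4 called genes per list, of 45 lists. The members and lists were chosen with earlier results of these data known. The fits were tested on simulated data. Coordinates count from 1.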

Additional observations from a re-analysis of the deposited data

Results flagged for a closer look

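The tested difference of the response at 25 percent sucrose between the labels singled out 8 genes. The log2 change in the libraries labelled cabut RNAi minus that in the controls was 2.32 for Cyp4e3, 2.33 for CG10383, 1.77 for Pepck1, 1.73 for Irp-1B, 1.43 for Thor and 1.29 for AcCoAS. It was -1.62 for CG3348 and -3.61 for Prestin (limma, Benjamini-Hochberg adjusted p = 0.00876 to 0.0482). Each rests on 1 control library at 25 percent and 1 at 0 percent. For CG3348 that at 0 percent held only 2.56 normalized reads. The calls of CG3348 and Prestin were lost with a pseudocount of 5 and in edgeR. An unadjusted p under 0.05 was reached by 613 of 6551 genes.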

How the results depend on the processing

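At 25 against 0 percent sucrose 8 genes were higher and 40 lower. Without a filter on low values the counts were 13 and 69, with limma without the intensity trend 0 and 6 (Shmt, CG5966, Nmdmc, GIIIspla2, Gart and Amy-p), without the label term 1 and 8, and in the libraries labelled cabut RNAi alone 5 and 35. EdgeR called 9 and 62, 8 and 40 of them among the main calls. Leaving out 1 library gave 3 to 12 higher and 13 to 50 lower. Pseudocounts of 0.5 and 5, a minimum mean of 50, both other scalings, robust limma, DESeq2, the fit over 12 libraries and summed transcript rows kept both counts within 1.5 times. No named gene's call changed direction in any fit run. The 8 genes whose response differed between labels became 4 with a pseudocount of 5, 199 without a filter, 1 without the trend (Prestin) and 5 with edgeR, and 0 to 9 when 1 library was left out. Leaving out a control library at 25 or 0 percent could not be fitted there. At 25 against 100 percent sucrose edgeR called 8 genes where limma called 0, and 0 without the control library at 100 percent (added after seeing the data), and leaving out 1 library in limma gave 0 to 1. At 25 against 50 percent every fit run called 0. The causes were not tested. For the replicate numbers of libraries labelled cabut RNAi, the correlation over 6551 genes was 0.0831 between 0 and 25 percent. Over all pairs of concentrations it ran from -0.112 to 0.143. Such low values cannot tell whether libraries of the same number were handled together. With the replicate block the counts were 8 higher and 36 lower, 9 for the difference between labels, and 0 and 0 at 25 against 50 and 100 percent. Depth, at 875878 to 1859204 reads in the 6 libraries compared, limits the low genes.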
